A study of Homo sapiens with 24 samples.

Results

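The JAK, STAT and SOCS genes are the kinases, transcription factors and feedback inhibitors of cytokine signalling. Of this family 9 genes were followed here after proton therapy (PT) of U87 cells, namely JAK1, JAK2, STAT2, STAT3, STAT5A, STAT5B, STAT6, SOCS2 and SOCS3. Every gene spot whose name on the array is one of these 9 was taken, which gave 17 probes on 35 spots, out of 30982 names, 41000 probes and 43376 gene spots. U87 MG is an established human glioblastoma cell line, and all samples are labelled as this 1 line. Si306 is an inhibitor of the SRC family of tyrosine kinases, used at 10 µM. Proton doses were 2 and 10 Gy, and 24 h later total RNA was taken and hybridised to Agilent arrays with 2 colours. There were 4 configurations. Cells after PT, called U87 2 Gy and U87 10 Gy, were set against untreated U87 cells. Cells given Si306 and PT, called U87 Si306 + 2 Gy at the lower dose and U87 Si306 + 10 Gy at the higher, were set against cells that had PT alone at that dose. On every array the treated RNA carried Cy5 and its control Cy3, without a dye swap, so that the bias of a probe for 1 dye cannot be separated from a ratio, while a constant bias cancels in a difference between doses. No configuration had Si306 without protons.

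In this pathway a cytokine such as IL6 or LIF binds its receptor, and the JAK kinases bound to the receptor's tail phosphorylate it and the STAT proteins that dock there. Phosphorylated STATs pair, enter the nucleus and switch genes on, the SOCS genes among them. The SOCS proteins then bind the receptor or the kinase and damp the signal, so that SOCS transcripts are often read as a record of recent STAT activity. SRC kinases can phosphorylate STAT3 directly. In glioblastoma, STAT3 is known for its part in growth, invasion and a mesenchymal state. An array measures transcripts, and the activity of a kinase or a STAT protein, which is set by phosphorylation, was not measured.

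Each configuration has 6 labelled replicates. By the file headers these 24 files are 3 scans of each of 8 arrays. Scans of an array were averaged, which left n = 2 arrays for each configuration, called array 1 and array 2 by their position on the slide. Nothing settles whether both arrays carry RNA of separate cultures, so the p-values measure only the spread between these arrays, which may be technical. In U87 2 Gy, replicate 5 was scanned from a 10 Gy array, and in U87 10 Gy, replicate 2 was scanned from a 2 Gy array. Both scans were left out. The values below are log2 ratios of Cy5 to Cy3, normalized by loess so that the median of all probes lies near 0, and they were tested with limma, with Benjamini-Hochberg adjustment over 30418 probes. A probe is called changed where its adjusted p is under 0.05.

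The probes read different stretches of the same transcript, and this bears on JAK1 and STAT3 below. The sequences are those printed on the array, 60 bases each, written as the transcript reads, and the coordinates are those of the files (hg17, minus strand). The first JAK1 probe lies at chr1:65013891-65015666, where its 60 bases are spread over 1776 bases of genome and so cross at least 1 intron. It codes for a stretch of the kinase domain. The second lies further 5′ at chr1:65044642-65044701, in the part that codes for the N-terminal side of the protein, by which JAK1 holds the receptor.
JAK1 probe 1: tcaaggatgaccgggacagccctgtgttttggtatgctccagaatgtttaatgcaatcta
JAK1 probe 2: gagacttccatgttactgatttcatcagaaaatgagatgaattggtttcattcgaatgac
STAT3 probe 1 at chr17:37727910-37727969 and STAT3 probe 2 at chr17:37727930-37727989 overlap, and the 40 bases they share are in capitals. These 2 probes therefore measure nearly the same stretch of STAT3.
STAT3 probe 1: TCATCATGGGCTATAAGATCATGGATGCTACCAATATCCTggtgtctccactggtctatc
STAT3 probe 2: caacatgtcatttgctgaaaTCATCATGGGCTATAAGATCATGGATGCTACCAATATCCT

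STAT3 probe 3 lies further 3′, at chr17:37719449-37719508. JAK2 and STAT3 probe 1 were printed on 10 spots each and all other probes on 1 spot. Of the 17 probes, 16 passed the filter on low values (Cy3 or Cy5 well above background on 2/3 or more of the arrays in any 1 configuration). STAT3 probe 4 did not, since neither channel was well above background on any of the 8 arrays, and it was not tested.

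The arrays of PT alone lie on 1 slide and those with Si306 on another, and the RNA on these slides differed beyond the treatments. The Cy5 RNA of the first slide and the Cy3 RNA of the second are labelled as the same material, U87 cells after PT. Across 30418 probes their log2 signals correlated with r = 0.871 and differed with an SD of 1.21, whereas both channels of the first slide correlated with r = 0.990. These correlations run over probes, which are not independent replicates. In the control channel, after background correction and centring, the epithelial keratin KRT18 was 84.3-fold higher on the Si306 slide, while CD44 was 5.19-fold lower. The epithelial adhesion molecule EPCAM (TACSTD1 on the array) was well above background on 2 of the 4 arrays of the first slide and on all 4 of the second, with Cy3 signals of 61.7 to 91.3 and of 1027 to 1268. The endothelial gene PECAM1 and the stem cell factor SOX2 were well above background on none of the first slide's arrays and on all 4 of the second. Copies of KRT18 elsewhere in the genome may share its probe. Of 9 glial and mesenchymal genes, 6 were well above background in the control channel of all 8 arrays, VIM, CD44 and FN1 among them. S100B was well above background on none. Of the 10 markers of other cell types with a probe, 4 were above it on all arrays and 2, the leukocyte gene PTPRC and the endothelial gene CDH5, on none. The Cy3 signal summed over the 9 of these markers measured on all arrays was 999 to 1253 on the first slide and 20340.3 to 28745 on the second, where most of it came from KRT18. CDKN2A, which is deleted in this line, was well above background on all 8 arrays, with Cy3 signals from 285 to 413 on the first slide and 184 to 217 on the second. The part of these differences in the results was not tested, and slide and Si306 treatment cannot be told apart. Whether the Si306 slide carries RNA of the same cells and controls as its labels name is unsettled, and its ratios below are those of the samples so labelled.

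Among the genes followed here the control signal differed between slides most for SOCS2 probe 1, which read 233 to 315 on the first slide and 1112 to 1249 on the second (4.51-fold after correction). STAT6 went the other way, from 3199 to 5081 on the first slide and 1308 to 1477 on the second, 2.86-fold lower. STAT5A probe 1 was not well above background on any array of the first slide and was above it on all 4 of the second. SOCS3 probe 1 read 567 to 819 and 589 to 659, so that the slides overlapped. Ratios within an array are therefore compared below within a slide, and values of both slides are set side by side only.

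**Figure D1:**
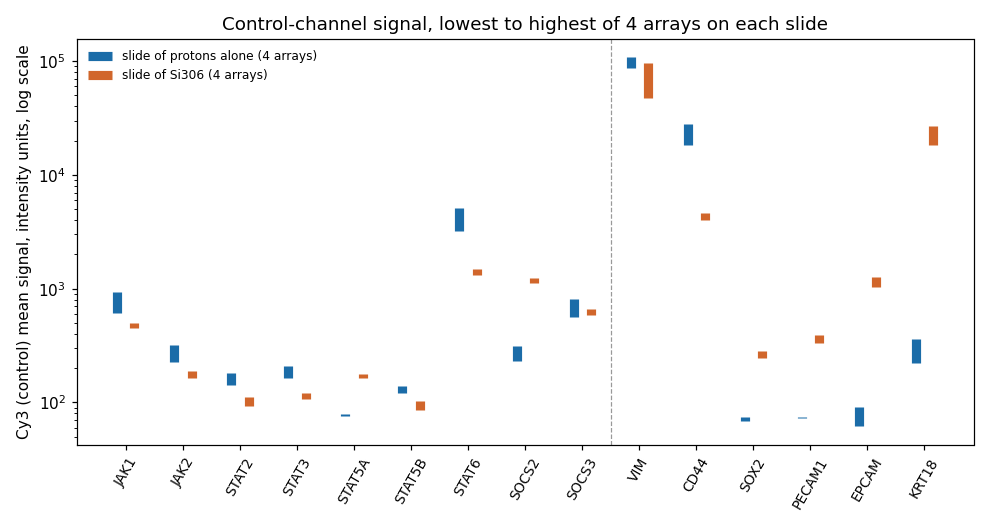
Control-channel (Cy3) mean signal, before background subtraction and on a log axis, of the brightest probe of each of the 9 genes (left of the dashed line) and of 6 marker genes (right). Each bar runs from the lowest to the highest of the 4 arrays of a slide. KRT18, EPCAM, PECAM1, SOX2, SOCS2 and STAT5A lie higher on the Si306 slide, with no overlap between slides. CD44, JAK1, JAK2, STAT2, STAT3, STAT5B and STAT6 lie lower there, also with no overlap. SOCS3 and VIM overlap.

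Loess takes out the part of a log2 ratio that follows the brightness of the spots, and centring each scan on its median in place of loess leaves it in. Among the 7605 dimmest of all tested probes, median centring changed the log2 ratio by a median of -0.54 at 2 Gy, -0.43 at 10 Gy, -0.79 with Si306 at 2 Gy and -0.44 with Si306 at 10 Gy. Among the 7605 brightest it changed it by 0.38, 0.30, 0.60 and 0.42. Of all probes 82.5%, 79.7%, 88.4% and 82% were then called changed. The brightest hold STAT6 and SOCS3 probe 1, and the dimmest STAT3 probe 3 and the second probes of STAT5A, STAT5B, SOCS2 and SOCS3. The values below are those after loess unless median centring is named, and which scaling is nearer to the RNA was not tested.

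JAK2, the kinase that serves receptors of growth hormone, erythropoietin and the IL6 family, was lower after PT at both doses and higher where Si306 had been added. The log2 ratio was -0.49 on both arrays of U87 2 Gy, and -0.45 and -0.44 on those of U87 10 Gy. It was 0.24 and 0.26 for U87 Si306 + 2 Gy, and 0.15 and 0.17 for U87 Si306 + 10 Gy. All 4 arrays of PT alone lie below 0 and all 4 with Si306 above it. The means were -0.49 (SE 0.0311, adjusted p = 2.52e-07) at 2 Gy and -0.45 (SE 0.0311, adjusted p = 3.97e-07) at 10 Gy. With Si306 they were 0.25 (SE 0.0311, adjusted p = 3.32e-05) and 0.16 (SE 0.0311, adjusted p = 0.000984). The 10 spots of this probe varied with an SD of 0.0487 to 0.0729 within an array. The doses did not differ beyond the error, with a difference of 0.04 between 10 and 2 Gy (95% interval -0.05 to 0.14) under PT alone. In bulk RNA such as this, fewer cells of a kind and less RNA per cell cannot be told apart.

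JAK1, which serves interferon and IL6 family receptors, gave opposite signs at its 2 probes in all 4 configurations. Probe 1, in the kinase domain, read -0.29 and -0.21 on the arrays of U87 2 Gy and -0.47 and -0.45 at 10 Gy. With Si306 it read -0.38 and -0.34 at 2 Gy, and -0.24 and -0.34 at 10 Gy. Probe 2, further 5′, read 0.14 on both arrays at 2 Gy, 0.25 and 0.21 at 10 Gy, 0.20 and 0.22 for U87 Si306 + 2 Gy, and 0.06 and 0.17 for U87 Si306 + 10 Gy. Both probes were well above background in both channels of all 8 arrays, and on no array do their signs agree. Probe 1 was called lower with means of -0.25 (adjusted p = 0.000133), -0.46 (1.16e-06), -0.36 (7.24e-06) and -0.29 (4.14e-05), but with median centring in place of loess it read 0.053 at 2 Gy and -0.01 and -0.02 in the Si306 configurations, none of which was called. At 10 Gy it was -0.21 there. Probe 2 was called higher in each, also under median centring (0.32, 0.40, 0.34 and 0.20). After loess its means were 0.14 (adjusted p = 0.00581), 0.23 (0.000223), 0.21 (0.000305) and 0.12 (0.0157). Without array 2 of U87 Si306 + 10 Gy the last of these was 0.06 and not called. No direction is therefore given for JAK1 as a gene.

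STAT6, the factor of IL4 and IL13 signalling, was higher after PT at 2 Gy and with Si306 at both doses. Its log2 ratio was 0.28 and 0.26 on the arrays of U87 2 Gy, and 0.04 and 0.01 on those of U87 10 Gy. The arrays of the 2 doses do not overlap. The mean at 2 Gy was 0.27 (SE 0.0315, adjusted p = 2.33e-05), while that at 10 Gy was 0.03 (adjusted p = 0.506) and did not pass the test. With Si306 it was higher than under PT alone at both doses, with 0.15 and 0.14 on the arrays at 2 Gy (adjusted p = 0.00185) and 0.22 and 0.24 at 10 Gy (adjusted p = 8.99e-05). Under median centring STAT6 was called higher in all 4 configurations, at 0.68, 0.35, 0.70 and 0.61.

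STAT3, the main STAT of the IL6 family, did not pass the test at its brightest probe in any configuration. Probe 1 lay between -0.02 and 0.06 on the 8 arrays, with means of 0.02, 0.02, 0.01 and 0.04, with 95% intervals such as -0.05 to 0.10 in U87 10 Gy. Probe 2, which shares 40 bases with it, had means of -0.06 and 0.03 under PT alone and -0.08 in both Si306 configurations, and was not called either. Under median centring probe 1 read -0.29 in U87 Si306 + 2 Gy and was called, and probe 2 was called in both Si306 configurations (-0.54 and -0.29). Probe 3, at the 3′ end, read 0.07 and 0.09 at 2 Gy and 0.06 and 0.05 at 10 Gy. In the Si306 configurations it read -0.36 and -0.25 at 2 Gy, and -0.31 on both arrays at 10 Gy. These means of -0.31 were called lower (adjusted p = 1.99e-05 and 2.1e-05). Under median centring they were -0.93 and -0.60, and the values of PT alone turned to -0.22 and -0.17 and were called lower. After loess probe 3 alone of the STAT3 probes was called on the Si306 slide. It is also the dimmest of the 3 tested, with Cy3 signals of 96.9 to 108 on that slide, though well above background.

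The remaining STAT genes lay near 0 after loess. STAT2, a factor of the interferon response, was called in U87 10 Gy only, at 0.13 (adjusted p = 0.0162), a call that was lost without either array of that dose (0.14 and 0.11). STAT5A probe 1 read 0.20 and 0.17 for U87 Si306 + 2 Gy, and 0.13 and 0.20 for U87 Si306 + 10 Gy, and was called higher in both (adjusted p = 0.00105 and 0.00263), but not with the log ratio of the scanner software. Without array 2 the mean at 10 Gy was 0.13 and not called. In the arrays of PT alone this probe was not well above background in the control channel, and no fold is given. STAT5B probe 1 was called after loess in U87 2 Gy, at 0.09 (adjusted p = 0.0312), and lost this call without either array of the dose (0.12 and 0.07). STAT5A probe 2 and STAT5B probe 2 were not called in any configuration after loess. Under median centring most calls of these genes were lower. In the 2 Si306 configurations STAT2 was called at -0.50 and -0.22 and STAT5B probe 1 at -0.37 and -0.30. STAT5A probe 2 was called there at -0.66 and -0.42 and STAT5B probe 2 at -0.88 and -0.51. PT alone gave -0.62 and -0.56 for STAT5A probe 1, -0.39 and -0.40 for STAT5A probe 2, and -0.28 for STAT5B probe 2 at 10 Gy. Called higher were STAT2 at 10 Gy (0.16) and STAT5A probe 1 with Si306 (0.23 and 0.24). STAT5A and STAT5B are near copies that serve growth hormone and prolactin receptors, and signal of the one on the probe of the other cannot be told apart here.

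SOCS3, the feedback inhibitor induced by STAT3, was the gene that separated the doses most. Its brighter probe read 0.43 and 0.45 on the arrays of U87 2 Gy, and -0.14 and -0.22 on those of U87 10 Gy. For U87 Si306 + 2 Gy it read 0.33 and 0.30, and for U87 Si306 + 10 Gy -0.07 and -0.08. At both settings the 2 Gy arrays lie above 0 and the 10 Gy arrays below it. The mean at 2 Gy was 0.44 (SE 0.0335, adjusted p = 9.75e-07), and at 10 Gy it was -0.18 (SE 0.0335, adjusted p = 0.000725), although median centring turned the latter to 0.070. With Si306 at 2 Gy it was higher than under PT at 2 Gy, by 0.31 (adjusted p = 1.01e-05). At 10 Gy the value of -0.08 did not pass the test (adjusted p = 0.067) and read 0.25 under median centring, which put the values at 2 Gy at 0.75 without and 0.77 with Si306. Both scans that were left out followed their array and not their label. The scan labelled U87 2 Gy replicate 5 read -0.22 for this probe and that labelled U87 10 Gy replicate 2 read 0.41.

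The other SOCS3 probe was dim. Its control channel was not well above background on any of the 8 arrays, so that no fold is given. Under median centring its log2 ratios in U87 2 Gy and U87 10 Gy were -0.37 and -0.34, both called lower. Loess gave 0.18 for the lower dose (95% interval 0.06 to 0.30, adjusted p = 0.0153). For the higher dose it gave 0.14 (95% interval 0.02 to 0.26, adjusted p = 0.0419). Both loess values were called higher by limma, but they are open to dye bias and set no lower limit on a change. Neither was called with the log ratio of the scanner software, the first was lost without array 2 of U87 2 Gy (0.11), and the second without array 1 (0.12) or array 2 (0.17) of U87 10 Gy. It does not show the difference between doses of the brighter probe, with a difference of -0.04 (95% interval -0.21 to 0.13).

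SOCS2, which damps growth hormone signalling and is induced by STAT5, was lower with Si306 at both probes, although not under median centring for probe 1. Probe 1 read -0.19 and -0.12 on the arrays of U87 Si306 + 2 Gy, and -0.33 and -0.42 on those of U87 Si306 + 10 Gy. In the arrays of PT alone it read 0.02 and 0.09 at 2 Gy, and 0.15 and 0.17 at 10 Gy. All 4 arrays of the Si306 slide lie below 0 and all 4 of PT alone above it, each against its own control. The means were -0.16 (adjusted p = 0.00304) and -0.38 (SE 0.0371, adjusted p = 6.51e-06) with Si306, but with median centring the first turned to 0.36 and the second was -0.02. The first was -0.12 and not called without array 1 of U87 Si306 + 2 Gy. Under PT alone SOCS2 probe 1 was called at 10 Gy, at 0.16 (adjusted p = 0.00278), and not at 2 Gy (0.06, adjusted p = 0.227). Median centring gave a higher call at 2 Gy (0.23) as well as at 10 Gy (0.33). Probe 2 was lower with Si306 as well, at -0.22 (adjusted p = 0.000665) at 2 Gy and -0.21 (adjusted p = 0.00101) at 10 Gy. Median centring put it at -0.45 and -0.34 with Si306, and at -0.71 and -0.57 under PT alone, all called lower. Under PT alone its control channel was not well above background, and no fold is given for the call it had at 2 Gy (adjusted p = 0.0422), which was lost without array 2 of U87 2 Gy.

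**Figure D2:**
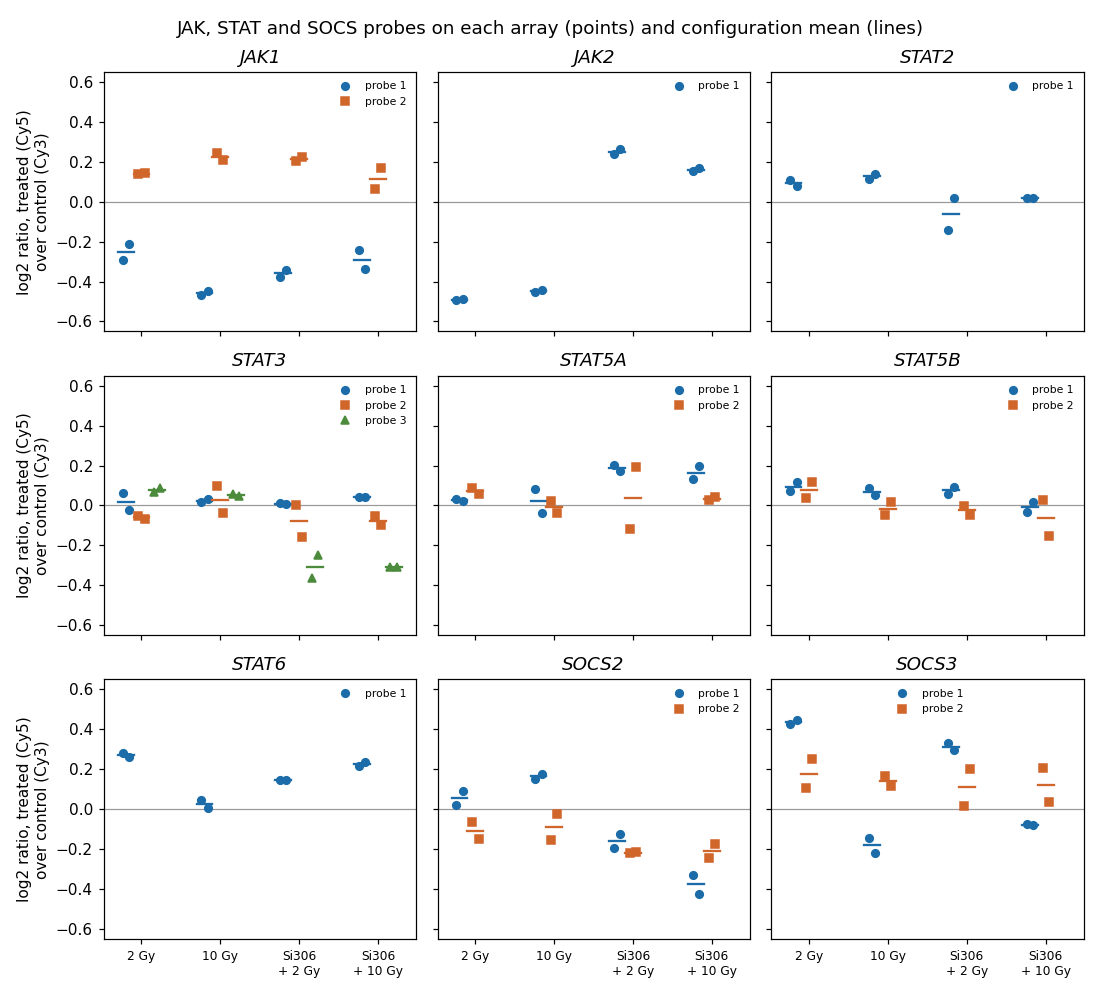
Log2 ratio of treated (Cy5) to control (Cy3) RNA for the 16 tested probes of the 9 genes in the 4 configurations. Points are the 2 arrays of a configuration, lines their mean, and symbols the probes of a gene. JAK2 lies below 0 under PT alone and above 0 with Si306, the 2 JAK1 probes lie on opposite sides of 0 (with median centring probe 1 turned to 0.053 at 2 Gy), and SOCS3 probe 1 lies above 0 at 2 Gy and below it at 10 Gy (with median centring 0.070 under PT alone and 0.25 with Si306 at 10 Gy).

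Counted over the 16 tested probes, calls were no more frequent than over all probes of the array. In U87 2 Gy 5 probes were called higher and 3 lower, where 32.1% of all probes were called higher and 25.1% lower. In U87 10 Gy these were 4 and 3 probes, beside 31.4% and 26.8%. In U87 Si306 + 2 Gy they were 5 and 4 beside 36.3% and 28.5%, and in U87 Si306 + 10 Gy 4 and 4 beside 33.1% and 27.8%. None of the 16 passed the 2-fold limit of the study in any configuration, which 0.688%, 0.914%, 0.652% and 0.342% of all probes did in the same order. The median log2 ratio of the 16 probes was 0.07, 0.02, 0.02 and 0.00, beside 0.02, 0.01, 0.03 and 0.02 over all probes. With median centring more of the 16 were called lower than higher in every configuration, 4 higher and 6 lower at 2 Gy, 4 and 8 at 10 Gy, 6 and 9 with Si306 at 2 Gy, and 5 and 8 with Si306 at 10 Gy. Of all probes 41.2% were then called higher and 41.3% lower at 2 Gy, 39.6% and 40.1% at 10 Gy, 44% and 44.3% with Si306 at 2 Gy, and 41.1% and 40.9% with Si306 at 10 Gy. Where a channel was not above background, as for SOCS3 probe 2, a larger change cannot be told from these ratios.

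The difference between doses was tested directly. Under PT alone 3 of the 16 probes were lower at 10 Gy than at 2 Gy and none higher, beside 10.6% and 9.23% of all probes. SOCS3 probe 1 differed by -0.62 (SE 0.0473, adjusted p = 2.43e-05, 95% interval -0.72 to -0.52), STAT6 by -0.25 (SE 0.0445, adjusted p = 0.00328) and JAK1 probe 1 by -0.21 (SE 0.0518, adjusted p = 0.0177). The JAK1 call was lost without array 2 of U87 2 Gy (-0.17), without array 1 of U87 10 Gy (-0.20) and without array 2 of U87 10 Gy (-0.21). With every scan kept in the group of its label and the array as a random block, the 3 differences were -0.13, -0.07 and -0.06, and none was called. This setting counts both misplaced scans under the dose of their label. It therefore cannot decide whether the arrays of the doses differ. The STAT6 call was also lost without both arrays that hold a misplaced scan (-0.24), an alternative added after the data were seen. The effect of Si306 differed between doses for 2 probes, both lower at 10 Gy, beside 11.8% lower and 9.31% higher of all probes. With median centring 6 of the 16 were higher and 2 lower, and 61.4% of the calls over all probes were higher in place of 44.1%. The 2 probes called after loess were SOCS3 probe 1 at -0.39 (SE 0.0473, adjusted p = 0.000338) and SOCS2 probe 1 at -0.22 (SE 0.0525, adjusted p = 0.0148). The SOCS2 call was lost without array 2 of U87 Si306 + 2 Gy (-0.18) and without array 2 of U87 Si306 + 10 Gy (-0.17).

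**Figure D3:**
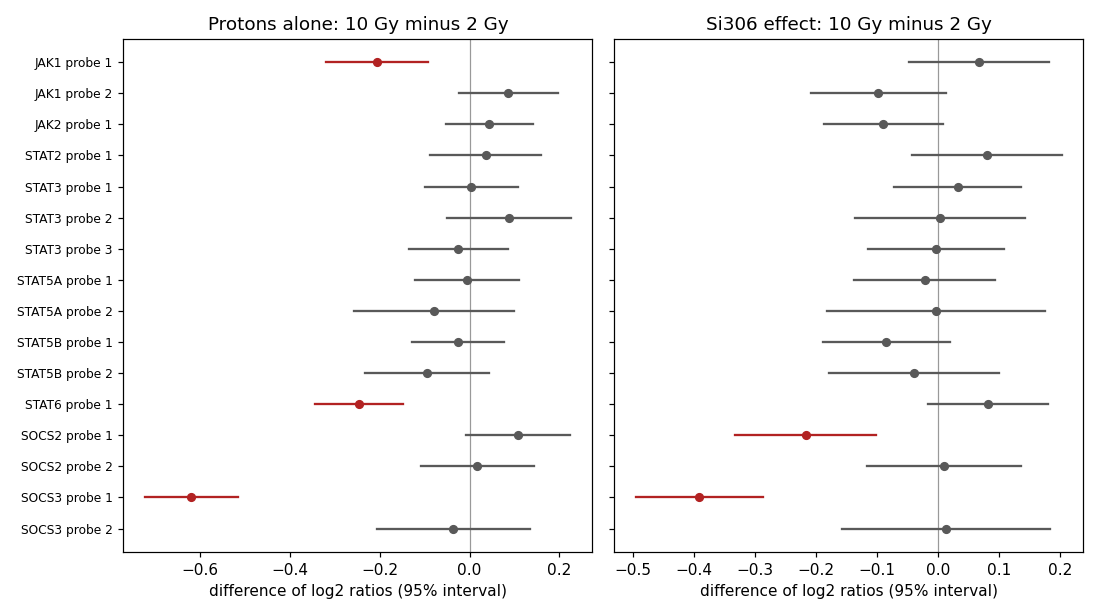
Difference in log2 ratio between 10 and 2 Gy for the 16 tested probes, under PT alone (left) and for the effect of Si306 (right). Points are estimates from limma, bars 95% intervals, and red marks an adjusted p under 0.05. SOCS3 probe 1 stands furthest from 0 on both sides, at -0.62 and -0.39.

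The control channel of the Si306 slide offers another reading of the difference between doses, since 2 of its arrays carry RNA labelled as PT at 2 Gy and 2 carry RNA labelled as PT at 10 Gy. There the Cy3 level of SOCS3 probe 1 differed by 0.04 on the log2 scale between 10 and 2 Gy, that of STAT6 by -0.04 and that of JAK1 probe 1 by -0.04. The differences of the first slide were thus not seen in these controls. Over 30418 probes the difference between doses in this channel had an SD of 0.112. That of the untreated Cy3 RNA between the 2 Gy and the 10 Gy arrays of the first slide, where no difference was made, was 0.130. Over the same probes it correlated with the difference measured on the first slide with r = 0.0106. This reading was added after the values were seen and has no test.

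The partners of these genes were taken from 5 lists, with the brightest probe for each gene. Of the 22 ligands 13 were tested, and IL6, the ligand that activates STAT3 through JAK1 and JAK2, was lower after PT (-0.71 and -0.62, adjusted p = 2.3e-08 and 4.38e-08, or -0.31 and -0.30 under median centring) and higher with Si306 (0.18 and 0.20). LIF, of the same family, was higher after PT (0.51 and 0.57). With Si306 it was called at -0.38 and -0.17, which turned to 0.03 and 0.12 under median centring, not called. The call with Si306 at 2 Gy lacked a value of the same sign on both arrays. IL11, also of that family, was higher with Si306 (0.44 and 0.98) and at 2 Gy (0.12, but 0.05 and not called with the log ratio of the scanner software), and read -0.01 at 10 Gy, not called. Under median centring it was called higher at 10 Gy as well (0.26), and was 0.97 with Si306 at 2 Gy. Ligands called higher and lower were 6 and 2 at 2 Gy, 4 and 2 at 10 Gy, 3 and 5 with Si306 at 2 Gy, and 3 and 5 with Si306 at 10 Gy. Under median centring they were 6 and 6, 6 and 5, 3 and 8, and 3 and 8. Over all gene names, 32% were called higher and 24.8% lower at 2 Gy, 31% and 26.2% at 10 Gy, 38.3% and 27.7% with Si306 at 2 Gy, and 34.9% and 26.9% with Si306 at 10 Gy. These shares stand beside the counts of all 5 lists. Under median centring 39.6% to 44% of all probes were called higher and 40.1% to 44.3% lower. The median log2 ratio of the ligands was 0.02, 0.01, -0.05 and -0.01, beside 0.02, 0.02, 0.04 and 0.03 over all gene names.

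Of 27 receptors 22 were tested. Those called higher and lower were 9 and 4 at 2 Gy, 10 and 5 at 10 Gy, 10 and 5 with Si306 at 2 Gy, and 6 and 7 with Si306 at 10 Gy. Under median centring they were 11 and 4, 9 and 4, 12 and 7, and 11 and 8. IL10RB, a shared chain of the IL10 family, was higher in all 4 configurations (0.37, 0.55, 0.40 and 0.37). LIFR was called higher with Si306 (0.57 and 0.55) and at 2 Gy (0.16), and read 0.07 at 10 Gy, which was not called but was called higher under median centring (0.31) and without background correction (0.08). OSMR was higher with Si306 at 2 Gy (0.52) and read 0.09 with Si306 at 10 Gy, which was not called but was called higher under median centring (0.24) and without background correction (0.10). After PT it was called at -0.12 and -0.16, which under median centring were 0.03 and -0.02 and not called. The shared signal chain IL6ST was lower at 2 Gy (-0.14), at 10 Gy (-0.20) and with Si306 at 10 Gy (-0.15), and read -0.07 with Si306 at 2 Gy, not called. Under median centring the value at 2 Gy was -0.05 and not called, and that with Si306 at 2 Gy was -0.15 and called lower, as it was with the log ratio of the scanner software (-0.18). The median over the receptors was 0.09, 0.08, 0.02 and 0.01.

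Among the 5 other kinases and STATs, IRF9, which binds DNA together with STAT2 in the interferon response, was called higher at 2 Gy (0.15, adjusted p = 0.00469), lower with Si306 at 2 Gy (-0.63, adjusted p = 1.06e-07), and neither at 10 Gy (0.07) nor with Si306 at 10 Gy (-0.07). Under median centring these last values were 0.28 and 0.29, both called higher, and that with Si306 at 2 Gy was -0.13. With the log ratio of the scanner software the value at 2 Gy was 0.06 and not called, and that with Si306 at 10 Gy was -0.12 and called lower. Genes of this list called higher and lower were 1 and 1, 2 and 1, 1 and 4, and 0 and 1 in the order of the configurations above (under median centring 2 and 1, 3 and 2, 1 and 3, and 2 and 2), and their medians were -0.01, 0.10, -0.30 and -0.07.

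Of 16 inhibitors 14 were tested, with 7 higher and 5 lower at 2 Gy, 6 and 3 at 10 Gy, 7 and 4 with Si306 at 2 Gy, and 8 and 4 with Si306 at 10 Gy. Under median centring they were 9 and 2, 10 and 2, 7 and 5, and 8 and 4. SOCS1, an inhibitor of JAK kinases, was higher after PT (0.32 and 0.34) and lower with Si306 (-0.47 and -0.17), although under median centring the last was -0.01 and not called. SOCS5 was higher in all 4 configurations (0.46, 0.55, 0.40 and 0.19). PTPN11, the phosphatase SHP2, was higher after PT (0.64 and 0.50) and lower with Si306 at 10 Gy (-0.71, or -0.18 under median centring), while the value of -0.72 with Si306 at 2 Gy turned to 0.07 under median centring. The medians of this list were 0.07, 0.03, 0.09 and 0.10.

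Of 30 targets of STAT3 and STAT5 28 were tested. Those called higher and lower were 14 and 4 at 2 Gy, 12 and 6 at 10 Gy, 15 and 8 with Si306 at 2 Gy, and 17 and 5 with Si306 at 10 Gy, and their median log2 ratio was 0.07, 0.06, 0.12 and 0.17. Under median centring, where most probes of the array were called, they were 21 and 6, 20 and 5, 23 and 4, and 22 and 4. After loess the shares of all gene names called higher and lower were 32% and 24.8%, 31% and 26.2%, 38.3% and 27.7%, and 34.9% and 26.9%. FOS, an immediate early factor, was lower after PT at 2 Gy (-0.86) and at 10 Gy (-1.58), and higher with Si306, by 2.09 at 2 Gy and 0.14 at 10 Gy. CEBPD was higher with Si306 (0.84 and 0.99). At 2 Gy it was called at -0.18, which turned to 0.14 under median centring, and at 10 Gy it read 0.05, not called (0.32 and called higher under median centring). The survival gene BCL2L1 was higher after PT (0.57 and 0.88) and lower with Si306 (-0.21 and -0.15), and HIF1A was higher in all 4 configurations (0.59, 0.41, 0.22 and 0.13). MYC was lower at 10 Gy (-0.79) and with Si306 at 10 Gy (-0.71), by less under median centring (-0.45 and -0.24). Its values of -0.23 at 2 Gy and -0.45 with Si306 at 2 Gy turned to 0.19 and 0.27 under median centring. These targets thus moved in both directions within each configuration, with more called higher than lower, as over all gene names. Of the 222 calls over the 5 lists, 43 had the opposite sign under median centring and 134 kept it but moved by over 1.5 times, while 2 had the opposite sign with the log ratio of the scanner software.

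**Figure D4:**
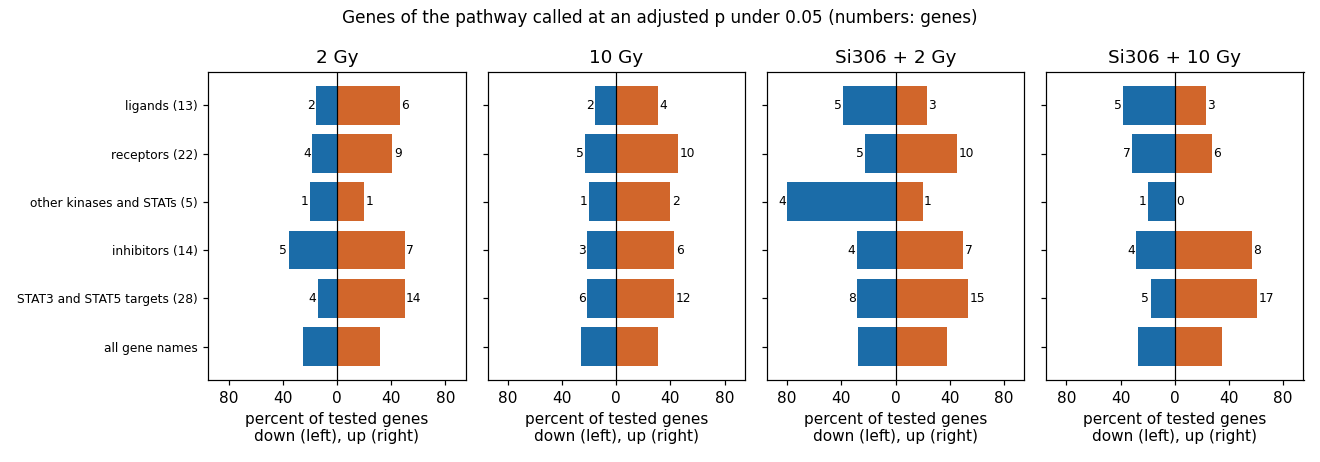
Percent of the tested genes of each list (number tested in brackets) called higher (right) or lower (left) in the 4 configurations, at an adjusted p under 0.05, with the number of genes at each bar. The bottom bars give all gene names of the array, of which 24.8% to 27.7% were called lower and 31% to 38.3% higher. Of the 222 calls on the lists 43 had the opposite sign under median centring.

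The brightest probes of JAK2 and SOCS3 covered the widest range over the 8 arrays, 0.76 and 0.67, and that of STAT3 the narrowest, 0.08. This range pools both slides, whose controls differ, and for JAK2 it lies mostly between the slides. The genes whose log2 ratios lay closest to those of JAK2 on all 8 arrays, out of 10427 compared, were HSPBAP1 (root mean square difference 0.0296), ZNF84 (0.0457) and PHYH (0.0548). For SOCS3 they were CACNA1C (0.132), HECTD2 (0.136) and SLU7 (0.155), none as near as those of JAK2.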

How the data were processed

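The authors deposited tables of Agilent Feature Extraction 9.5.3.1 with, per spot, mean signal intensity, local background intensity and a log10 ratio after that software's own correction, and a series matrix holding the same log10 ratio, rounded, with a column median of 0 (largest difference 0.00500). The numbers carry a decimal comma. Centring and direction of the matrix were read from the scanner values. Intensities were used here.

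Of 24 scans, 22 were used, from 8 arrays. SD against the scans of its own array and of its own label was 0.0772 and 0.178 for U87 2 Gy replicate 5, and 0.0757 and 0.171 for U87 10 Gy replicate 2, and both were left out. Scans of 1 array differed with a median SD of 0.0738, and those of 2 arrays in the same configuration with 0.106. Outlier spots (2.98% to 5.73% of a scan) were left out. Signals were corrected by normexp (offset 50), log2 ratios were fitted with loess scan by scan, and then averaged over spots and over scans. R 4.3.3 was used with limma 3.58.1 and statmod 1.5.0. The fit ran over 30418 of 41000 probes, with 4 residual degrees of freedom and a prior of 6.79. It was checked on simulated data. The number of arrays limits the precision.

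The members, lists and tests were chosen with earlier results of these data known. The text names every probe of the 9 genes, and genes of a list only if among its top 3 rises or top 3 falls in a configuration (called, same sign on all arrays), with their values elsewhere. The values of 1 list gene are not reported here. Genes of likeness are the 3 with the smallest root mean square difference. Array names were matched to current symbols through the RefSeq gene table. The design had foreseen loess with alternatives in background correction, scaling, filter, scans, replicate number as a block, single arrays left out, probe choice and prior. Correction by GC class, normexp with outlier spots kept, and leaving out both arrays with a misplaced scan were added after seeing the data.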

Additional observations from a re-analysis of the deposited data

Results flagged for a closer look

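For 4 probes the effect differed between doses by the limma contrast itself. Under PT alone the log2 ratio was lower at 10 Gy than at 2 Gy by -0.62 (adjusted p = 2.43e-05) for SOCS3 probe 1, by -0.25 (adjusted p = 0.00328) for STAT6 and by -0.21 (adjusted p = 0.0177) for JAK1 probe 1. The effect of Si306 was lower at 10 Gy by -0.39 (adjusted p = 0.000338) for SOCS3 probe 1 and by -0.22 (adjusted p = 0.0148) for SOCS2 probe 1. With every scan in the group of its label none of the 3 differences under PT alone was called. That setting counts both misplaced scans under the other dose and cannot decide whether the doses differ. The JAK1 and SOCS2 calls were lost without single arrays, and those of JAK1 and STAT6 without both arrays that hold a misplaced scan. In the control channel of the Si306 slide, labelled as PT alone, the level of SOCS3 probe 1 differed by 0.04 between doses on the log2 scale.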

How the results depend on the processing

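Over 16 probes, 6 comparisons and all alternatives, 1850 values kept direction and side of the threshold, 96 fell below it, 66 passed it and 22 reversed. Of the reversed values, 21 came under median centring, after which the median of all kept probes lay 0.20 to 0.35 above 0 and was subtracted. They were 0.053 for JAK1 probe 1 at 2 Gy, -0.22 for STAT2 with Si306 at 10 Gy, -0.29 for STAT3 probe 1 with Si306 at 2 Gy, -0.22, -0.17 and (Si306 effect between doses) 0.33 for STAT3 probe 3, -0.62 and -0.56 for STAT5A probe 1 under PT alone, -0.39, -0.66, -0.42 and 0.24 for STAT5A probe 2, -0.37 and 0.37 for STAT5B, 0.36 for SOCS2 probe 1 with Si306 at 2 Gy, 0.070 and 0.25 for SOCS3 probe 1 at 10 Gy without and with Si306, and -0.37, -0.34, -0.81 and -0.41 for SOCS3 probe 2. The other was 0.058 for SOCS3 probe 1 at 10 Gy, with every scan in the group of its label. The cause was not tested.

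Member probes called under median centring were 12 at 10 Gy, 15 and 13 with Si306 (beside 79.7%, 88.4% and 82% of all probes), and 8 for the Si306 effect between doses, of which 6 were higher. All probes called in that contrast were then 16466, with 61.4% higher in place of 44.1%, and 549, 454, 3451 and 532 probes were called and at least 2-fold in the 4 configurations. With the scanner software's log ratio the latter were 1120, 1203, 1785 and 1206, and with the series matrix 1119, 1205, 1786 and 1207. With 1 probe a gene name 5 members were called at 2 Gy and 5 with Si306 at 10 Gy. With every scan in the group of its label, both misplaced scans included, 0 members and 16 probes in all differed between doses under PT alone.

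Chosen after seeing the data, normexp with outlier spots kept (SD of its fit up to 1353, against at most 2.02) called 2, 0, 2 and 2 members, 0 and 0 between doses, and 3361, 3756, 6816, 4141, 363 and 298 probes in all, with 84, 144, 64 and 18 at least 2-fold. Without both arrays that hold a misplaced scan, also added, 4 members were called at 2 Gy, and 1 member and 2375 probes in all between doses under PT alone. Correction by GC class, added too, turned no sign.

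With the replicate number as a block over scans, 13 members were called with Si306 at 10 Gy, 6 between doses under PT alone and 5 for the Si306 effect, and 12659 and 15313 probes in all in the last 2. Same-numbered scans of different configurations had a median correlation of -0.00877, against 0.00266 for others, so the numbers do not pair the samples, and this fit counts scans as units.

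Leaving out single arrays gave 5 to 8 members at 2 Gy, 1 to 2 for the Si306 effect between doses, and 3026 to 5642 and 3026 to 7132 probes in all for both dose contrasts. The count of 5 was without array 2 of U87 2 Gy, and that of 1 without array 2 of U87 Si306 + 2 Gy or array 2 of U87 Si306 + 10 Gy. Without array 1 or 2 of U87 10 Gy, 3288 and 3026 probes differed between doses under PT alone. For the Si306 effect it was 3118 and 4061 without array 1 or 2 of U87 Si306 + 2 Gy, and 3292 and 3026 without array 1 or 2 of U87 Si306 + 10 Gy.

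Dim probes (STAT5A, STAT5B probe 2, SOCS2 probe 2, SOCS3 probe 2) are limited by background. With 2 arrays a configuration and no dye swap, changes near 0.1 on the log2 scale are at the limit of these data.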
